A study of Mus musculus with 12 samples.

Results

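The 10 genes described here are immediate early genes of lymphocytes: the EGR factors Egr1, Egr2 and Egr3, the NR4A nuclear receptors Nr4a1, Nr4a2 and Nr4a3, the AP-1 subunits Fos and Junb, the phosphatase gene Dusp2 and Ier2. They were listed by symbol, and all 10 were found among the 35907 genes to which transcript values could be summed. Bulk RNA was sequenced in 12 libraries from mouse spleen cells that the labels call CD4 T cells, with 3 libraries in each of 4 groups. WT donors were C57BL/6 mice and TCF-1 cKO donors were Tcf7 flox/flox mice crossed with CD4cre on the C57BL/6 background, all 8 to 12 weeks old and sex-matched. The methods list WT mice apart from the CD4cre and Tcf7 flox/flox mice that also served as controls in the study. Tcf7 encodes TCF-1, and the Cre recombinase is driven by the Cd4 promoter, so the deletion starts at the double-positive thymocyte stage and is carried by CD4 and CD8 T cells alike. Pre-Tx libraries were made from cells sorted from donor spleens before any transplant. Post-Tx libraries were made from donor cells sorted by H2Kb, with T cell surface markers, at day 7 from the spleens of lethally irradiated female BALB/c recipients. Those recipients had received donor CD3 T cells of either genotype together with T-cell-depleted bone marrow from WT mice, whose progeny also carry H2Kb. Each library is labelled as a separate biological replicate, and the labels do not give the number of mice behind each one.

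Immediate early genes are transcribed within minutes of T cell receptor ligation, from promoters already bound by SRF with its ELK partners and by CREB, and their transcripts decay quickly. Egr1, Egr2 and Egr3 encode zinc finger factors, of which Egr2 and Egr3 are known for restraining activated and anergic T cells, while NAB proteins act as EGR corepressors. Nr4a1, Nr4a2 and Nr4a3 encode orphan nuclear receptors whose levels follow antigen receptor signal strength and which limit T cell activation. Fos and Junb proteins dimerize in the AP-1 complex, Dusp2 dephosphorylates ERK and p38, and Ier2 encodes a small nuclear protein induced by growth factors and by antigen.

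The promoters of 4 of these genes are shown because signal-responsive elements can be read in them directly. The stretches come from RefSeq on GRCm38.p6, lie on the + strand and end 1 base before an annotated start. Those of Egr2 and Nr4a1 lie inside the span of the gene in GENCODE M21, before an inner start. Capitals mark a CArG box (the site bound by SRF) and TGACGT, a core of the CREB site, in Egr2, TGACGT in Fos and Nr4a3, and TGACGCA, a CREB-like element, in Nr4a1, each read on both strands.
Egr2 chr10:67537619-67537868: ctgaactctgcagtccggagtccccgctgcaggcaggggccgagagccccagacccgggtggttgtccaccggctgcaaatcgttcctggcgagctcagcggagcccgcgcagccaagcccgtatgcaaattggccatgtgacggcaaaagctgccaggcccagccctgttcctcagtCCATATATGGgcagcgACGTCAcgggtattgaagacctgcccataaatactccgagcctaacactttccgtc
Nr4a1 chr15:101266596-101266845: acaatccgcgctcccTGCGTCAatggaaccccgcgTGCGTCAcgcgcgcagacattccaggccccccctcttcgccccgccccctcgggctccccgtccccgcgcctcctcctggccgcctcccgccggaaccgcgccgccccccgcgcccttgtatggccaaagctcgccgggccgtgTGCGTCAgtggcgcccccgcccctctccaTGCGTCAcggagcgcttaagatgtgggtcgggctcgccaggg
Nr4a3 chr4:48045055-48045152: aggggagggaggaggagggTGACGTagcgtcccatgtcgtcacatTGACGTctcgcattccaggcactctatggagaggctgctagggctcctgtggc
Fos chr12:85473640-85473889: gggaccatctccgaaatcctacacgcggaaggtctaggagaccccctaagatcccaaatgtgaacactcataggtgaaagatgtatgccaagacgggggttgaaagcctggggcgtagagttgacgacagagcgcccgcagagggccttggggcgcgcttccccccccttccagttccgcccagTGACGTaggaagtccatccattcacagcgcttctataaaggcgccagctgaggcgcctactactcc
The Egr2 stretch held the CArG box CCATATATGG 72 to 63 bases before the start, followed by TGACGT on the other strand at 56 to 51. The Nr4a1 stretch held TGACGCA 4 times, from 235 to 36 bases before the start. The Fos stretch held TGACGT at 66 to 61 and TATAAA at 33 to 28. The windows of Nr4a2, Junb and Dusp2 held no CArG box, TGACGT or TGACGCA, and only Egr2 windows held a CArG box. An Egr2 window before another start (chr10:67535249-67535498) held none of these elements. Among 32851 promoter windows of 250 bases, 1.47% held a CArG box, 6.47% held TGACGT, 1.75% held TGACGCA and 12.4% held TATAAA. The EGR site GCGNGGGCG was found before Nr4a1, Nr4a2 and Dusp2, against 4.7% of all windows. The full CREB site TGACGTCA (1.55% of windows), the AP-1 site TGANTCA (6.75%), the NR4A monomer site AAAGGTCA (1.34%) and the TCF sites CTTTGAA (4.46%) and CTTTGAT (3.21%) were not found in the windows of Egr2, Nr4a1, Nr4a2, Nr4a3, Fos, Junb and Dusp2. In GENCODE M21 on GRCm38, Egr2 (ENSMUSG00000037868) spans chr10:67535475-67542188, Egr3 (ENSMUSG00000033730) chr14:70077203-70082614 and Dusp2 (ENSMUSG00000027368) chr2:127336159-127338376, all on the + strand. The motifs are matches of letters and say nothing of occupancy.

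The libraries held 17103415 to 49486745 estimated counts each. In the Pre-Tx libraries Cd79a, a B cell receptor chain, stood at 8.06 to 20.5 times the counts of Cd3e, and Cd4 at 0.528 to 1.06 times those of Cd8a, so these libraries did not show the marker pattern of sorted CD4 T cells. The series text also names CD8 T cells for the Pre-Tx sort, and the methods name them for the day 7 sort. In the Post-Tx libraries the ratio of Cd79a to Cd3e was 0.00207 to 0.0077, and Cd4 exceeded Cd8a 53.0 to 1117 times. The 11 B cell markers together took 7803 to 10549.6 CPM (counts scaled to a fixed library total) in Pre-Tx libraries and 53.3 to 131 CPM in Post-Tx libraries. The 11 T cell markers took 3185 to 3771 CPM in WT Pre-Tx, 1576 to 1828 CPM in TCF-1 cKO Pre-Tx, 8812 to 10573 CPM in WT Post-Tx and 6647 to 7088 CPM in TCF-1 cKO Post-Tx. Tcf7 itself was not called between the genotypes in whole-transcript counts, although at day 7 its 3 TCF-1 cKO libraries (91.6 to 113 normalized CPM) lay below the 3 WT libraries (155 to 182). The log2 difference was -0.04 before transplant (adjusted p = 0.924) and -0.66 at day 7 (adjusted p = 0.0669, both by edgeR's quasi-likelihood test). Counts over whole transcripts are no check of the floxed part of Tcf7. In these bulk libraries, fewer cells of a type and less RNA per cell cannot be told apart.

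On the per-length TPM scale, Ier2 and Junb led the 10 genes in all 4 groups, at 125 to 184 TPM for the group means of Ier2 and 117 to 173 TPM for those of Junb. The ranges of these 2 genes overlapped within every group, so their order was not set. Nr4a1 came next in each group, with group means of 25.1 to 37.7 TPM, and overlapped Egr1 in WT Pre-Tx alone. Egr1, Dusp2 and Fos followed before transplant at 12.03 to 15.7 TPM in group means, with overlapping ranges between neighbours. Egr2 changed its place between the stages in WT, while in TCF-1 cKO it ranked 7 below Fos at both stages, with overlapping ranges. Its mean was 2.59 ± 0.890 TPM (SD, n = 3) in WT Pre-Tx, below Fos with no overlap, and 22.9 ± 3.11 TPM (SD, n = 3) in WT Post-Tx, above Fos with no overlap. Nr4a2, Egr3 and Nr4a3 filled the lowest places in each group, with means of 0.135 to 8.21 TPM. Together the 10 genes took 575 to 780 CPM in WT Pre-Tx, 478 to 611 CPM in TCF-1 cKO Pre-Tx, 665 to 761 CPM in WT Post-Tx and 468 to 654 CPM in TCF-1 cKO Post-Tx, so each genotype's ranges overlapped across the stages.

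**Figure D1:**
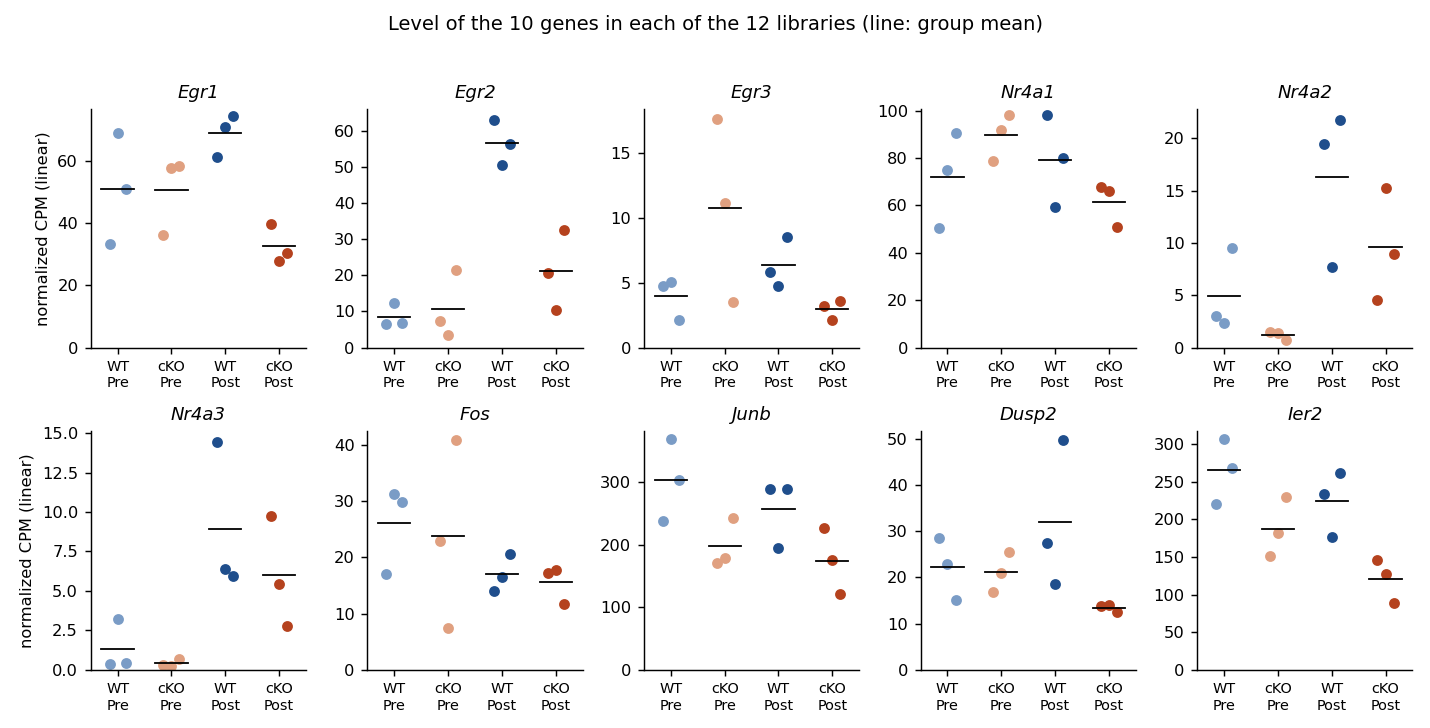
Normalized CPM (TMM, linear scale from 0) of each gene in the 12 libraries, with 3 points per group and a line at the group mean. Egr2 stood at 50.6 to 63.0 in WT Post-Tx and at 10.5 to 32.7 in TCF-1 cKO Post-Tx, and the scale differs between panels.

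At day 7 after transplant, 4 of the 10 genes were lower in TCF-1 cKO than in WT libraries by edgeR's quasi-likelihood test (adjusted p under 0.05): Egr1, Egr2, Dusp2 and Ier2, with log2 differences of -0.89 to -1.40. None was higher. Over all 19287 genes tested, 3.13% were lower and 3.52% were higher. The fitted log2 difference lay below 0 for all 10 genes with this normalization, with a median of -0.82 against 0.09 over all genes, and with library totals as the only scaling Nr4a1 (0.05) and Fos (0.27) turned above 0. The ranges of normalized CPM lay apart, with TCF-1 cKO below WT, for Egr1, Egr2, Egr3, Dusp2 and Ier2, and 16.9% of all genes had ranges apart in that direction. T cell marker genes moved the same way, as given after the single genes.

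Egr1 was at 61.2, 71.0 and 74.5 normalized CPM in the 3 WT Post-Tx libraries and at 39.6, 28.0 and 30.5 in those of TCF-1 cKO. Every TCF-1 cKO library lay below every WT library. The log2 fold change was -1.07 (SE 0.26, adjusted p = 0.0295, edgeR's quasi-likelihood test). Egr2, which with Egr3 is induced through NFAT, was at 63.0, 50.6 and 56.4 in WT Post-Tx and at 20.6, 10.5 and 32.7 in TCF-1 cKO Post-Tx. These ranges were also apart, and the TCF-1 cKO libraries spread over a wider relative range than the WT ones. For Egr2 the log2 fold change was -1.40 (SE 0.35, adjusted p = 0.0328, edgeR). Egr3 was low throughout at day 7, at 5.86, 4.75 and 8.499 in WT and 3.22, 2.12 and 3.62 in TCF-1 cKO. Its ranges did not overlap either, but its log2 fold change of -1.07 (SE 0.60) missed the threshold (adjusted p = 0.214, edgeR).

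None of the 3 NR4A genes passed the test at day 7, and the ranges of the genotypes overlapped for each of them. Nr4a1, the family member most used as a reporter of antigen receptor signal, was at 98.3, 59.4 and 79.99 normalized CPM in WT Post-Tx and at 67.6, 66.1 and 51.0 in TCF-1 cKO Post-Tx. Its log2 fold change was -0.37 (SE 0.26, adjusted p = 0.315, edgeR). Nr4a2 was at 19.5, 7.74 and 21.8 in WT and at 4.58, 15.3 and 8.94 in TCF-1 cKO, with the second WT library below 2 of the 3 TCF-1 cKO libraries. Its log2 fold change was -0.76 (SE 0.48). Nr4a3 was at 14.4, 6.36 and 5.97 in WT and at 9.76, 5.44 and 2.79 in TCF-1 cKO, a log2 difference of -0.59 (SE 0.57). Neither Nr4a2 nor Nr4a3 could be told from no difference at this spread (adjusted p = 0.265 and 0.464, edgeR).

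The AP-1 subunits did not pass the test. Fos was at 13.9, 16.5 and 20.7 in WT Post-Tx and at 17.3, 17.8 and 11.7 in TCF-1 cKO Post-Tx, so the groups lay on top of each other (log2 -0.12, SE 0.35, adjusted p = 0.821, edgeR). Junb, the AP-1 subunit with the higher TPM, was at 289, 194 and 288 in WT and at 226, 175 and 121 in TCF-1 cKO, with overlap (log2 -0.55, SE 0.25, adjusted p = 0.143, edgeR). Ier2 was at 234, 176 and 262 in WT Post-Tx and at 146, 128 and 88.3 in TCF-1 cKO Post-Tx, without overlap (log2 -0.89, SE 0.24, adjusted p = 0.0405, edgeR). Dusp2 was tightly grouped in TCF-1 cKO, at 13.7, 14.0 and 12.4, and spread in WT, at 27.5, 18.6 and 49.8. All 3 WT values of Dusp2 lay above the TCF-1 cKO values, and the log2 fold change was -1.23 (SE 0.36, adjusted p = 0.0462, edgeR). Without the third WT library the Dusp2 difference was -0.88 with an adjusted p of 0.212.

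**Figure D2:**
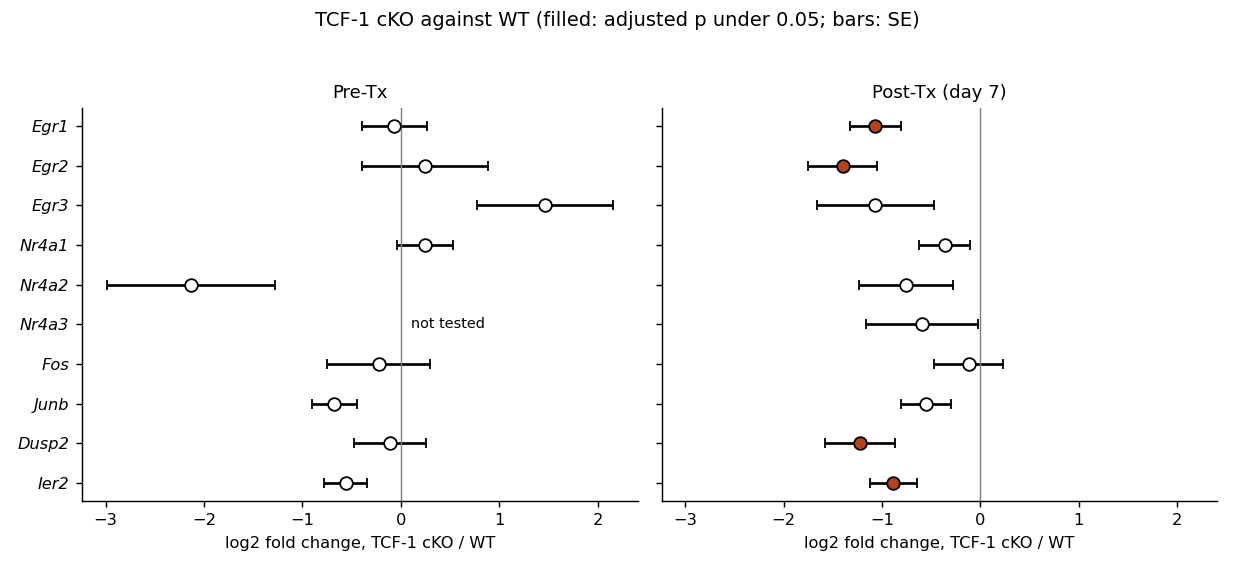
Log2 fold change of TCF-1 cKO over WT (x axis) for each gene before transplant (left) and at day 7 (right), with bars of 1 SE and filled points where the adjusted p was under 0.05. No gene is filled before transplant, and Egr1, Egr2, Dusp2 and Ier2 are filled at day 7.

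Beside these differences, 10 of the 11 T cell markers were lower in the same day 7 libraries of TCF-1 cKO, with a median log2 difference of -0.87 over the list, close in size to the median of the 10 immediate early genes. Cd3e fell by 0.97 and Trac by 1.17 on the log2 scale. The 8 erythroid markers summed to 712 to 1487 CPM in WT Post-Tx against 1651 to 5756 CPM in TCF-1 cKO Post-Tx. Of these 8 markers, 5 were higher. The olfactory receptor genes, which lymphocytes do not use, summed to 1087 to 3135 CPM in WT Post-Tx against 4484 to 12030.5 CPM in TCF-1 cKO Post-Tx. B cell markers were not called in either direction, and no T cell, B cell or erythroid marker was at 0 in a whole group. The TMM factors were 1.19 to 1.31 in TCF-1 cKO Post-Tx and 0.873 to 1.10 in WT Post-Tx. When the summed counts of the T cell markers were used as each library's size, a scaling chosen after the data were seen, the day 7 differences were -0.24 for Egr1, -0.56 for Egr2, -0.34 for Dusp2 and -0.01 for Ier2, and none of the 10 genes was called. Per 1000 CPM of T cell markers, Egr2 stood at 3.86 ± 2.01 CPM (SD, n = 3) in TCF-1 cKO and 5.67 ± 0.573 CPM (SD, n = 3) in WT (exact permutation test, two-sided p = 0.3, where 0.1 is the smallest p that 3 against 3 allows). Nr4a1 on that scale was at 11.3 ± 1.80 CPM (SD, n = 3) in TCF-1 cKO and 7.79 ± 0.672 CPM (SD, n = 3) in WT, without overlap (exact permutation p = 0.1). Fos was the other gene without overlap on that scale, at 2.86 in TCF-1 cKO and 1.73 in WT (exact permutation p = 0.1). The share of all genes without overlap on that scale was not computed. With T cell marker counts as library size, Nr4a1 (0.53) and Fos (0.73) had log2 differences below the median of all genes (0.95). The part of the T cell marker difference in the day 7 result was not otherwise tested.

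The scaling moved all genes together. The median log2 difference of all genes at day 7 was 0.09 with TMM, 0.05 with RLE factors, 0.37 with upper-quartile factors, 0.49 with library totals alone and 0.95 with T cell marker counts. Relative to that median, Egr1 differed by -1.16 to -1.20, Egr2 by -1.497 to -1.512, Dusp2 by -1.29 to -1.32 and Ier2 by -0.96 to -0.98 under these 5 scalings. Because a scaling shifts all genes by nearly the same amount, this steadiness follows from the calculation and is no test of the calls. Among all genes the calls were 679 higher and 604 lower with TMM, 687 and 111 with upper-quartile factors, 751 and 74 with library totals, and 3993 and 22 with T cell marker counts. All 4 calls were kept with RLE factors, without a filter on low counts, with DESeq2, with voom and limma and with a replicate block, and all 4 were lost with upper-quartile factors, library totals, a minimum mean of 10 CPM, log2(TPM + 1) values and a fit of all 12 libraries. Leaving out TCF-1 cKO Post-Tx replicate 2 or WT Post-Tx replicate 1 also left none of the 4, with 6 and 64 calls among all genes against 1283. Without TCF-1 cKO Post-Tx replicate 1 the call of Dusp2 was lost, and without WT Post-Tx replicate 2 all 4 remained. Without TCF-1 cKO Post-Tx replicate 3 (445 calls among all genes) the remaining call was Egr2, as it was without WT Post-Tx replicate 3 (325 calls).

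**Figure D3:**
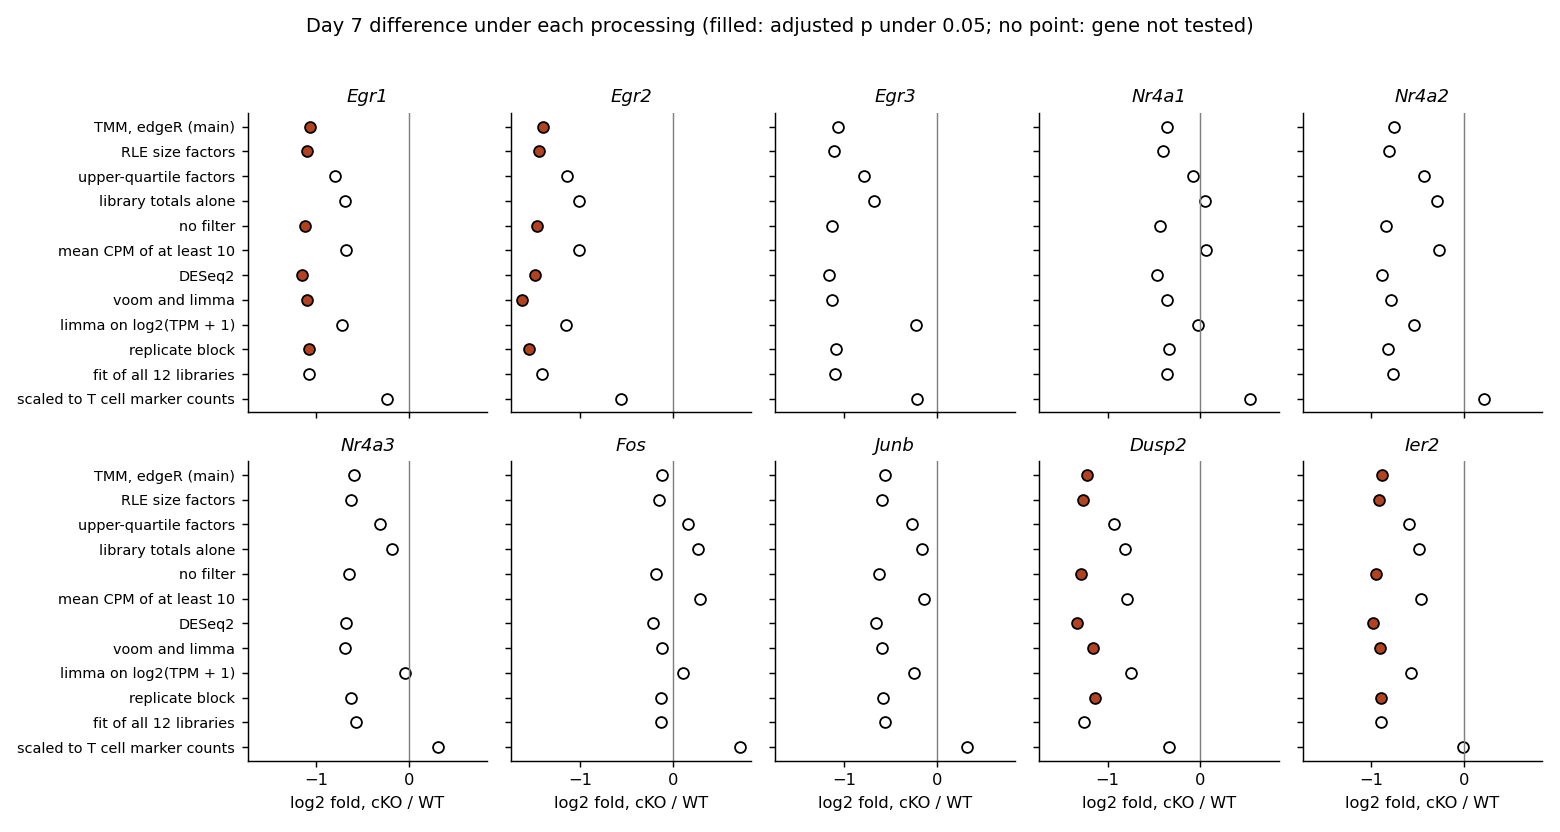
Log2 fold change of TCF-1 cKO over WT at day 7 (x axis) for each gene under 12 ways of processing (y axis), with filled points where the adjusted p was under 0.05. Egr1, Egr2, Dusp2 and Ier2 lie below 0 under all 12, and Nr4a1, Nr4a2, Nr4a3, Fos and Junb lie above 0 with T cell marker scaling.

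Related genes outside the 10 gave the following counts at day 7, when 3.13% of all genes tested were lower. In the EGR family and NAB list, Nab1 (log2 -0.43) and Nab2 (-0.69) were not called, and Egr4 was too low to test. Of 13 other AP-1, ATF and small MAF factors, 12 were tested and Batf alone was called (log2 -0.98, SE 0.23, adjusted p = 0.0261, edgeR). Batf partners JUN proteins in activated T cells, and its mean was 368 normalized CPM in WT against 186 in TCF-1 cKO. Jun (-0.59, adjusted p = 0.186, edgeR) was not called. Of 35 other immediate early genes, 34 were tested and 9 were lower, led by Zfp36l2 (-1.79), an mRNA decay factor, Cd69 (-1.08), an early activation antigen, and Tnfaip3 (-1.05), an inhibitor of NF-kB signalling. The list's median was -0.69. Of 13 other MAP kinase phosphatase and Sprouty genes, none was called, and Dusp1 stood at -0.72 (adjusted p = 0.0735, edgeR). Of 24 genes of the ERK cascade and its SRF, ELK and CREB factors, Rps6ka1 (-0.89), an ERK-activated kinase, and Crtc2 (-0.94), a CREB coactivator, were lower. Of 22 T cell receptor-responsive genes, 13 were lower, led by Tox2 (-2.37), Pdcd1 (-1.42) and Tigit (-1.30), with a list median of -0.92. Cd69 and Myc stand in both this list and that of other immediate early genes, and Cd5 is also a T cell marker. Of 12 heat shock genes, 1 was lower (Dnajb1, -0.82). These counts moved with the scaling as the 10 genes did: with library totals alone, 5 of the 22 receptor-responsive genes, 2 of the 11 T cell markers and 1 of the other immediate early genes were lower, and with T cell marker counts 2 of the 22 were lower and 1 was higher.

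Before transplant, none of the 9 genes tested differed between TCF-1 cKO and WT by edgeR's quasi-likelihood test, against 8.52% of 17021 genes higher and 5.65% lower. At an unadjusted p under 0.05, 3 of the 9 were lower (Nr4a2, Junb and Ier2), as 5708 of the 17021 genes differed in either direction at that threshold. DESeq2 called 1, Nr4a2, and voom with limma called none. The median of the 9 log2 differences was -0.11, the same as that of all genes. Nr4a2, at 3.01, 2.34 and 9.49 normalized CPM in WT Pre-Tx and 1.47, 1.36 and 0.742 in TCF-1 cKO Pre-Tx, was the only one with ranges apart (19.9% of all genes had ranges apart with TCF-1 cKO lower). Its log2 fold change was -2.13 (SE 0.85, adjusted p = 0.106, edgeR), from 15 to 154 counts per library. Egr3 was at 4.73, 5.10 and 2.10 in WT and 17.6, 11.2 and 3.51 in TCF-1 cKO, a log2 difference of 1.46 (SE 0.69, adjusted p = 0.161, edgeR) carried by 2 of the 3 TCF-1 cKO libraries. Junb was at 237, 369 and 303 in WT and 170, 179 and 243 in TCF-1 cKO (log2 -0.68, adjusted p = 0.0665, edgeR). Ier2 was at 221, 307 and 269 in WT and 152, 181 and 229 in TCF-1 cKO (log2 -0.56, adjusted p = 0.102, edgeR). Egr1, Egr2, Nr4a1, Fos and Dusp2 gave log2 differences between -0.22 and 0.25, each smaller than its SE. Nr4a3 was not tested, with 6, 55 and 7 counts in the WT libraries and 6, 6 and 14 in the TCF-1 cKO libraries.

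In the same Pre-Tx libraries 7 of 11 T cell markers were lower in TCF-1 cKO (median -1.08), 5 of 11 B cell markers and 2 of 6 NK cell markers were higher, and the NK cell markers took 172 to 235 CPM in TCF-1 cKO and 56.1 to 91.3 CPM in WT. The olfactory receptor genes summed to 2532 to 7011 CPM in WT Pre-Tx against 879 to 1550 CPM in TCF-1 cKO Pre-Tx. That order is the reverse of the one at day 7, and its part in the results was not tested. Scaled to the T cell marker counts, 3 of the 9 genes tested were higher in TCF-1 cKO: Egr1 (1.03, adjusted p = 0.0187), Egr3 (2.52, adjusted p = 0.0150) and Nr4a1 (1.33, adjusted p = 0.00186, all by edgeR). Over all genes a larger share was higher under that scaling, 7051 of 17021. That scaling moved the median of all genes from -0.11 to 0.94. With upper-quartile factors, which moved it to -0.47, Junb (-1.03, adjusted p = 0.0189, edgeR) and Ier2 (-0.91, adjusted p = 0.0257, edgeR) were lower instead. Among all genes 1451 were higher and 962 lower with TMM, 7051 and 288 with T cell marker counts, and 636 and 2070 with upper-quartile factors. The heat shock list, whose genes respond to handling stress, held 4 of 12 genes higher in TCF-1 cKO Pre-Tx, led by Hsp90aa1 (1.70), Hsph1 (1.98) and Dnaja1 (1.46), and its median was 0.86. Among other immediate early genes 6 of 35 were higher and none was lower, led by Rgs2 (1.62), Cd69 (1.94) and Klf6 (1.13). In the ERK, SRF, ELK and CREB list 6 of 24 were higher, led by Crem (2.84), Nras (1.31) and Map2k1 (0.96). No other gene of the EGR and NAB, AP-1 or phosphatase lists was called before transplant. Of the 22 receptor-responsive genes, 6 were higher, among them Irf4 (1.52) and Cd69, and Cd5 (-1.23) and Tox2 (-3.41) were lower. These counts also moved with the scaling. With upper-quartile factors 2 were higher and 2 lower in the ERK list, 2 and 3 among the receptor-responsive genes, and 3 and 0 among the other immediate early genes. With T cell marker counts 19, 11 and 24 were higher in these lists and none was lower.

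Whether the genotype difference itself differed between the stages was tested as an interaction over all 12 libraries. Of the 10 genes, Egr3 alone was called, with a lower value for TCF-1 cKO at day 7, against 11.5% of 21434 genes called lower and 17.1% called higher (3665 higher and 2469 lower with TMM, 4865 and 720 with upper-quartile factors, 4051 and 1228 with library totals). The interaction of Egr3 was -2.53 on the log2 scale (SE 0.87, adjusted p = 0.0398, edgeR's quasi-likelihood test). Egr1 (-1.07, SE 0.42, adjusted p = 0.0653) and Egr2 (-1.75, SE 0.76, adjusted p = 0.0895, edgeR) followed, and the other 7 had adjusted p of 0.109 to 0.996. The Egr3 call was lost with a replicate block (-2.49, adjusted p = 0.0580, edgeR), with upper-quartile factors (-1.87), library totals (-2.14), voom (-2.35) and log2(TPM + 1) values (-1.03), and in 9 of the 12 fits that left out a single library, in which it ran from -2.97 to -2.00. Without the first TCF-1 cKO Pre-Tx library, which had the highest Egr3 of all 12, it was -2.00 (adjusted p = 0.110, edgeR).

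The Egr3 counts of 34 to 337 per library were also shared unevenly between its transcripts. In WT Pre-Tx the retained intron transcript Egr3-202 took a mean of 81.4% of the gene's estimated counts, and the coding transcript Egr3-204 took 17.3%. In TCF-1 cKO Pre-Tx the means were 22.1% for Egr3-202 and 77.9% for Egr3-204, but the first library alone gave Egr3-202 66.3% and the other 2 gave it none. At day 7 Egr3-202 took 39.5% in WT and 44.3% in TCF-1 cKO, with 0 to 94.6% between the TCF-1 cKO libraries. The transcripts are 3876 bases (Egr3-202) and 3940 bases (Egr3-204) long, and kallisto divides reads between them by estimation. In Egr1, Egr2 and Ier2 all counts were on coding transcripts, and in Nr4a1, Junb, Fos and Dusp2 at least 91.9% were in every library. For Nr4a2 and Nr4a3 that share went down to 51.2% and 21.1% in single libraries. Of the stretches of 31 bases in the transcripts of 9 members, at most 0.523% also occur in another gene, and for Junb 6.52% do, all in Prdx2, which overlaps it on the opposite strand.

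**Figure D4:**
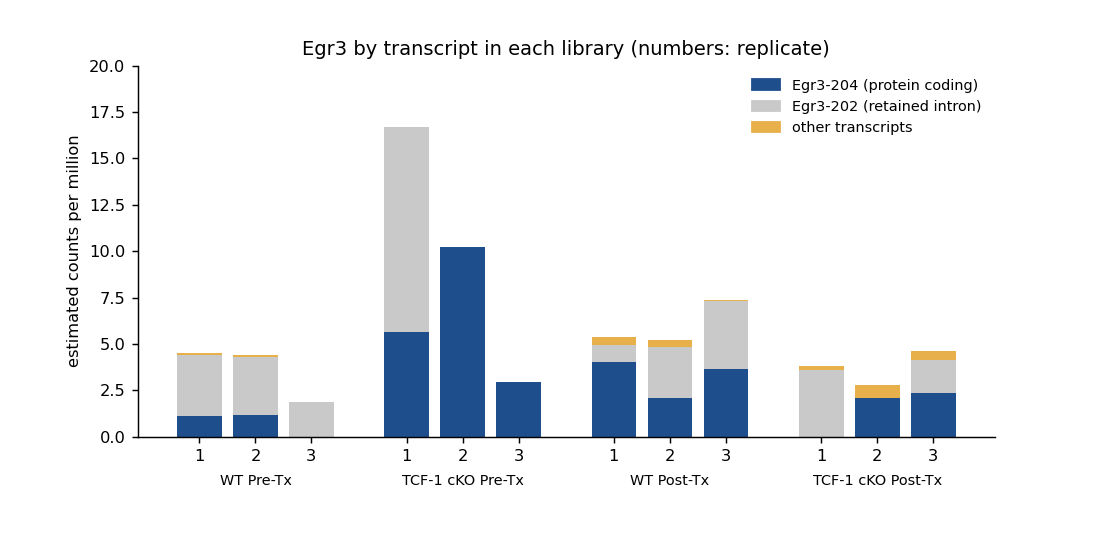
Estimated Egr3 counts as CPM of each library's total (y axis), split into the coding transcript Egr3-204, the retained intron transcript Egr3-202 and the other transcripts, for replicates 1 to 3 of each group. The first TCF-1 cKO Pre-Tx library is highest at 16.7, and the share of Egr3-202 differs widely between libraries of 1 group.

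The stages were then compared within each genotype. Day, host, sort and the B cell content changed together between Pre-Tx and Post-Tx, so their parts cannot be told apart. The interaction and both stage comparisons come from the same 12 libraries. In WT, 2 of the 10 genes were higher at day 7, Egr2 and Nr4a3, and none was lower (11.6% of 21434 genes were higher and 10.4% lower). These 2 were also the ones whose ranges lay apart with day 7 higher, as 18.0% of all genes did. Among all genes 2483 were higher and 2223 lower with TMM, and 1852 and 3216 with upper-quartile factors. Egr2 went from 6.51, 12.4 and 6.78 normalized CPM before transplant to 63.0, 50.6 and 56.4 at day 7, with a log2 fold change of 2.73 (SE 0.57, adjusted p = 0.00231, edgeR's quasi-likelihood test). The Egr2 call held in every alternative run. Nr4a3 went from 0.368, 3.22 and 0.431 to 14.4, 6.36 and 5.97, a log2 fold change of 2.73 (SE 0.85, adjusted p = 0.0300, edgeR). That of Nr4a3 was lost without WT Pre-Tx replicate 1 (2.45) or 3 (2.41) and without WT Post-Tx replicate 1 (2.20), with adjusted p of 0.0819 to 0.124 (edgeR), and with a minimum mean of 10 CPM it was not tested. Nr4a2 (1.72, SE 0.64, adjusted p = 0.0632, edgeR) missed the threshold and passed it with no filter (1.90), DESeq2 (1.76), voom (1.92) and log2(TPM + 1) values (1.88), and without WT Pre-Tx replicate 3 (2.75), WT Post-Tx replicate 2 (2.07) or TCF-1 cKO Pre-Tx replicate 3 (1.89). The other 7 genes lay between -0.61 and 0.68.

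In TCF-1 cKO, Nr4a2 and Nr4a3 were higher at day 7 and Egr3 was lower (14.2% of all genes were higher and 12.5% lower). Nr4a2 went from 1.47, 1.36 and 0.742 normalized CPM to 4.58, 15.3 and 8.94, a log2 fold change of 3.01 (SE 0.68, adjusted p = 0.00466, edgeR's quasi-likelihood test). Nr4a3 went from 0.314, 0.254 and 0.693 to 9.76, 5.44 and 2.79, at 3.82 (SE 0.91, adjusted p = 0.00646, edgeR). Both sets of ranges lay apart, as did those of 30.1% of all genes with day 7 higher. Among all genes 3037 were higher and 2676 lower with TMM, 4485 and 1644 with upper-quartile factors, and 5075 and 1434 with library totals. Egr2 went from 7.49, 3.39 and 21.4 to 20.6, 10.5 and 32.7, with overlap, and its log2 fold change of 0.98 (SE 0.54) was not called (adjusted p = 0.171, edgeR). It was called with library totals (1.504, adjusted p = 0.0436, edgeR) and with limma on log2(TPM + 1) values (1.44, adjusted p = 0.0297). Without TCF-1 cKO Pre-Tx replicate 3, the highest of its group, it was 2.14 and was called (adjusted p = 0.0138, edgeR). Egr3 fell by 1.85 on the log2 scale (SE 0.63, adjusted p = 0.0388, edgeR) with overlapping ranges. This call was lost with upper-quartile factors (-1.48), library totals (-1.41), voom (-1.62), log2(TPM + 1) values (-0.30) and the replicate block (-1.73). It was also lost without either of the 2 Pre-Tx libraries in which Egr3 was high (-1.31 without replicate 1 and -1.83 without replicate 2), without any single TCF-1 cKO Post-Tx library (-1.65 to -2.02), and without WT Pre-Tx replicate 1 (-1.69) or 2 (-1.69) or WT Post-Tx replicate 1 (-1.86). Nr4a1, Dusp2 and Ier2 were below their Pre-Tx range in every TCF-1 cKO day 7 library (20.1% of all genes had ranges apart in that direction), with log2 values of -0.54, -0.66 and -0.64, none of them called (adjusted p = 0.133, 0.203 and 0.0638, edgeR).

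**Figure D5:**
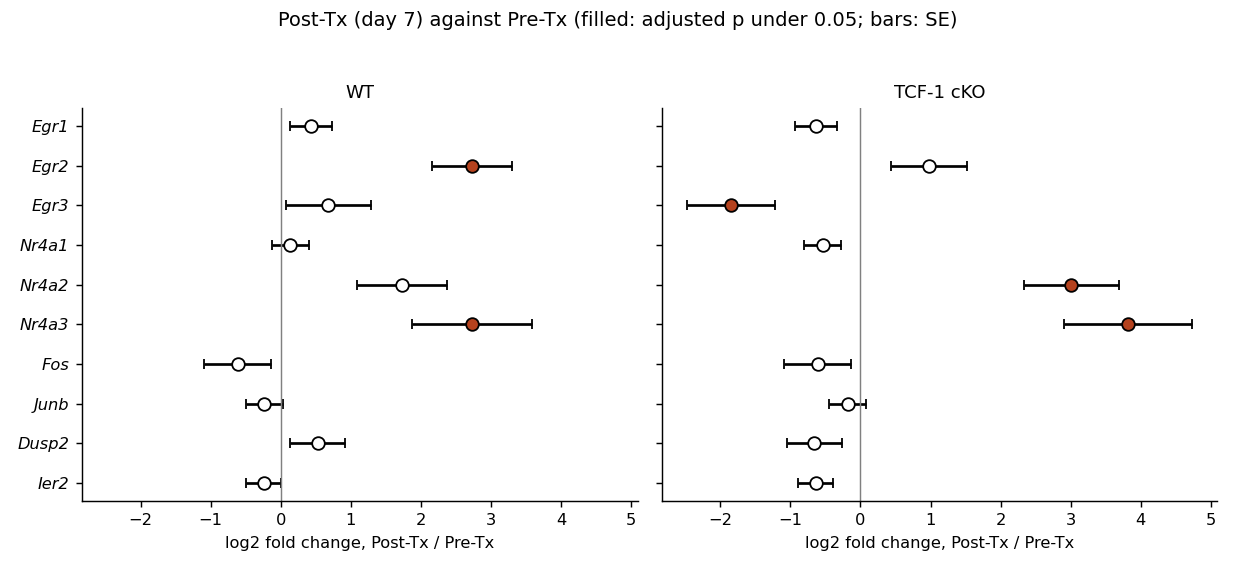
Log2 fold change of Post-Tx (day 7) over Pre-Tx (x axis) for each gene in WT (left) and TCF-1 cKO (right), with bars of 1 SE and filled points where the adjusted p was under 0.05. Egr2 is filled in WT, where it reached 2.73, and not in TCF-1 cKO, where it was called with library totals and with log2(TPM + 1) values, and Nr4a3 is filled in both genotypes.

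T cell markers were higher at day 7 in both genotypes, in 11 of 11 genes each, with list medians of 1.47 in WT and 1.497 in TCF-1 cKO, while all 11 B cell markers were lower. The 10 immediate early genes had medians of 0.48 in WT and -0.57 in TCF-1 cKO, against -0.41 and 0.36 over all genes. With upper-quartile factors their medians were 0.17 in WT and -0.19 in TCF-1 cKO, against -0.71 and 0.73 over all genes. With library totals they were 0.54 and -0.08, against -0.32 and 0.84. Relatives behaved variously between the stages. Batf was higher at day 7 in WT (3.17, from 41.0 to 368 normalized CPM) and in TCF-1 cKO (1.87, from 51.0 to 186). Jun, the classical FOS partner, was lower in WT (-1.76) and in TCF-1 cKO (-1.94). The EGR corepressor gene Nab1 was higher in WT (1.95, adjusted p = 0.000438, edgeR) and not called in TCF-1 cKO (0.82, adjusted p = 0.0650, edgeR). Dusp5, an ERK phosphatase, was higher in both (2.08 in WT and 1.59 in TCF-1 cKO). Over all genes tested, 11.6% were higher and 10.4% lower in WT, and 14.2% were higher and 12.5% lower in TCF-1 cKO. Of the 35 other immediate early genes, 11 were higher and 3 lower in WT, and 6 were higher and 13 lower in TCF-1 cKO. With upper-quartile factors these counts were 10 and 8 in WT and 7 and 12 in TCF-1 cKO. Of the 22 receptor-responsive genes, 16 were higher and 1 was lower in WT, and 12 were higher and 7 lower in TCF-1 cKO.

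Across the 12 libraries, with each stage centred on its own mean, the members did not all vary together. Ier2 (r = 0.92), Junb (0.84) and Egr1 (0.76) were closest to the mean of the other 9 genes, Dusp2 (0.65) and Egr2 (0.62) came next, and Nr4a2 (0.19) and Egr3 (-0.01) were farthest. These are Pearson correlations of 12 libraries that fall into 4 groups, given as a description. Without that centring, the mean z score of the 10 genes was 0.13 to 1.00 in WT Post-Tx and -0.82 to -0.22 in TCF-1 cKO Post-Tx. This uncentred score overlapped between genotypes before transplant (-0.40 to 0.49 in WT and -0.41 to 0.22 in TCF-1 cKO). The 10 genes' stage-centred mean z score was also compared with 9034 genes with a mean of at least 10 CPM. Those most like it were H2-D1 (r = 0.97), Prkag1 (0.96), Vars (0.95), Zfand2b (0.95) and Sqstm1 (0.95). Those most like the uncentred score were Eif4h (0.96), Sgta (0.95), Ctsa (0.94), Mrps12 (0.93) and Ap2m1 (0.93).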

How the data were processed

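RNA from 12 sorted spleen cell libraries, 3 in each of 4 groups named in the labels, was amplified with SMARTseq HT and made into Nextera XT libraries, a kit that does not mark strand. The authors deposited estimated counts and TPM values for 117497 transcripts in each library, made with kallisto 0.46.2 per their processing notes, which also name limma and mm9. The transcript identifiers matched GENCODE M21 for 99.1%, and the unmatched ones held 0.282 to 0.386% of the counts. Both values were summed per gene, and counts were rounded. The main test was edgeR 4.0.16 (quasi-likelihood F test, TMM factors, filterByExpr, Benjamini-Hochberg adjustment over all genes tested, threshold 0.05), run on the 6 libraries of each stage and on all 12 for the interaction and the stage comparisons. SE is the log2 fold change divided by the root of F. Normalized CPM used TMM factors over the 12 libraries. Alternatives used RLE, upper-quartile or no factors, no filter, a mean of at least 10 CPM, DESeq2 1.42.0, voom with limma 3.58.1, limma on log2(TPM + 1), a replicate block, a fit of all 12 libraries, single libraries left out and, added after the data were seen, T cell marker counts as library size. The scripts were tested on simulated data. The p-values measure the spread between these libraries, since the labels do not give the number of mice per library. The study states 3 or 4 mice per condition. The 10 genes, the gene lists and the tests were chosen with earlier results of these data known. From each list up to 3 called genes with the smallest adjusted p were named, and Jun, Dusp1 and Cd3e were named after their values were seen.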

Additional observations from a re-analysis of the deposited data

Results flagged for a closer look

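Egr3 was the only member of the 10 whose genotype difference differed between the stages by a test of that difference itself. The interaction was -2.53 on the log2 scale (adjusted p = 0.0398, edgeR's quasi-likelihood test), from a difference of 1.46 before transplant to one of -1.07 at day 7, neither of them called alone. Egr3 was higher than every WT Pre-Tx library in 2 of 3 TCF-1 cKO Pre-Tx libraries and lower than every WT Post-Tx library in 3 of 3 TCF-1 cKO Post-Tx libraries. Over all genes 11.5% were called lower and 17.1% higher for the interaction, so 1 call among 10 genes is no more than that background. The call was lost in 5 of 8 other settings and in 9 of 12 fits with 1 library left out. Its counts were 34 to 337 per library, and the split between its coding and retained intron transcripts varied within groups.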

How the results depend on the processing

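Before transplant no member was called, against 2 with upper-quartile factors or a mean of at least 10 CPM, 1 with DESeq2 or a fit of all 12 libraries and 3 with T cell marker counts. At day 7 the 4 calls went to 0 with upper-quartile factors, library totals, a mean of at least 10 CPM, log2(TPM + 1), a fit of all 12 libraries and T cell marker counts, and to between 0 and 4 with 1 library left out. The 1 interaction call went to 0 with upper-quartile factors, library totals, a mean of at least 10 CPM, voom, log2(TPM + 1) and the replicate block, to 3 with no filter or DESeq2, and to between 0 and 2 with 1 library left out. The 2 calls between stages in WT went to 1 with a mean of at least 10 CPM, to 4 with log2(TPM + 1) and to as few as 1 with 1 library left out (up to 3), and the 3 in TCF-1 cKO went to 0 with a mean of at least 10 CPM. Egr3, Nr4a2 and Nr4a3 were below the minimum mean of 10 CPM over the 12 libraries and not tested there, which accounts for the calls lost under it for the interaction and between stages. The cause of the other changes was not tested.

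Deviations from the group mean correlated at -0.272 to 0.248 between same-numbered libraries (18 pairs) and at -0.297 to 0.209 between differently numbered ones (36 pairs). The best match was the own number in 12 of 36 cases. Between WT Post-Tx and TCF-1 cKO Post-Tx the same-numbered correlations were -0.00019, 0.248 and 0.108. Whether the numbers mark anything that libraries share was not otherwise tested. The replicate block called 3257 genes at day 7 against 1283 without it.

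Other counts of calls among all genes that moved by over 1.5 times were, at day 7, 4300 with DESeq2, 2850 with voom, 2205 with no filter, 4015 with T cell marker counts, 825 with library totals, 798 with upper-quartile factors, 583 with a mean of at least 10 CPM and 137 with all 12 libraries, and 6 to 3209 with 1 library left out. Before transplant (2413) they were 5042 with DESeq2, 7339 with T cell marker counts and 3665 with all 12 libraries, and 14 to 2611 with 1 left out (14 without WT Pre-Tx replicate 1). With a mean of at least 10 CPM they were 1370 for the interaction (6134, and 3961 with log2(TPM + 1)) and 3163 between stages in TCF-1 cKO (5713). With 1 library left out they were 3013 to 7297 for the interaction, 2761 to 5154 between stages in WT (4706) and 2775 to 6197 in TCF-1 cKO.

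Values that changed sign, none of them called in the reported fit, were these. Before transplant they were -0.069 (Egr2) and -0.11 (Nr4a1) with upper-quartile factors, 0.018 and 0.023 (Egr1) with no filter and with DESeq2, -0.016 (Nr4a1) with a mean of at least 10 CPM, -0.064 (Egr2) with voom, 0.21 (Egr1 and Dusp2) with log2(TPM + 1), -0.0073 (Egr2) with the replicate block, and 1.03 (Egr1), 0.83 (Fos), 0.39 (Junb), 0.90 (Dusp2) and 0.50 (Ier2) with T cell marker counts. At day 7 they were 0.16 (Fos) with upper-quartile factors, 0.048 (Nr4a1) and 0.27 (Fos) with library totals, 0.060 (Nr4a1) and 0.29 (Fos) with a mean of at least 10 CPM, 0.11 (Fos) with log2(TPM + 1), and 0.53 (Nr4a1), 0.22 (Nr4a2), 0.31 (Nr4a3), 0.73 (Fos) and 0.32 (Junb) with T cell marker counts. For the interaction they were -0.089 (Fos) and -0.053 (Junb) with RLE factors, 0.023 (Nr4a1) and 0.30 (Ier2) with upper-quartile factors, 0.030 (Ier2) with library totals, -0.27 (Fos) and -0.22 (Junb) with no filter, 0.22 (Ier2) with a mean of at least 10 CPM, and -0.098 (Fos) and -0.062 (Junb) with DESeq2. Between stages they were, in WT, -0.19 and -0.13 (Nr4a1) with upper-quartile factors and a mean of at least 10 CPM and 0.18 (Junb) and 0.16 (Ier2) with log2(TPM + 1), and in TCF-1 cKO 0.19, 0.30, 0.17 and 0.31 (Junb) with upper-quartile factors, library totals, a mean of at least 10 CPM and log2(TPM + 1), and 0.00055 (Nr4a1) and 0.084 (Fos) with the last of these.

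With 1 library left out, values that changed sign ranged before transplant from -0.28 to 0.24 (Egr1), -0.58 to 0.70 (Egr2), -0.72 to 0.24 (Fos) and -0.33 to 0.11 (Dusp2), at day 7 from -0.26 to 0.0088 (Fos), and for the interaction from -0.69 to 1.64 (Nr4a3), -0.44 to 0.61 (Fos) and -0.21 to 0.24 (Junb). Between stages they ranged in WT from -0.037 to 0.46 (Nr4a1), -0.32 to 0.12 (Junb) and -0.36 to 0.063 (Ier2), and in TCF-1 cKO from -1.05 to 0.19 (Fos) and -0.43 to 0.16 (Junb). Counts limit Nr4a3 before transplant, with 6 to 55 per library, and Egr3.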
